A study of Homo sapiens with 12 samples.

Results

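The PARP family comprises enzymes that transfer ADP-ribose from NAD to proteins and nucleic acids, and DTX3L is the ubiquitin ligase that pairs with PARP9. The 10 genes described here were taken by symbol, 6 of them linked to the interferon response (PARP9, DTX3L, PARP10, PARP11, PARP12 and PARP14) and 4 others of the family (PARP15, PARP8, PARP1 and PARP3). They are 10 of 58656 gene entries with a usable symbol, and all 10 were among the 22528 genes tested. RNA sequencing covered 4 established DLBCL lines (TMD8, U2932, WSU-DLCL2 and SUDHL-4), DLBCL being diffuse large B-cell lymphoma, the most common aggressive lymphoma of adults. Each line was cultured for 18 hours with avadomide (CC-122), with lenalidomide or with the solvent DMSO, which gave 4 avadomide, 4 lenalidomide and 4 DMSO libraries. Both compounds carry a glutarimide ring and act through cereblon, the substrate receptor of a ubiquitin ligase; lenalidomide joins that ring to an isoindolinone and avadomide joins it to a quinazolinone. The sources used here give no doses, and the compounds are not known to have been used at matched ones. As a line has 1 library for each treatment, no difference within a single line has a replicate, and nothing in the labels says whether libraries shared a batch.

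Most of the family attach a single ADP-ribose unit to their targets, while PARP1 builds long chains on chromatin at DNA breaks. Type I interferon signals through its receptor and the kinases JAK1 and TYK2 to the factor ISGF3, of which STAT2 and IRF9 are parts. ISGF3 binds a DNA motif called the interferon-stimulated response element, and the gamma-activated sequence is the motif of interferon gamma signalling. PARP9, PARP14 and PARP15 are known as the B-aggressive lymphoma proteins, after the aggressive B-cell lymphomas in which the first of them was found, and each combines ADP-ribose-binding macrodomains with a transferase domain.

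PARP9, DTX3L, PARP15 and PARP14 are neighbours on chromosome 3. In GENCODE v29 (GRCh38) PARP9 lies on the minus strand at chr3:122527924-122564577, and DTX3L on the plus strand at chr3:122564238-122575203. PARP15 follows at chr3:122577602-122639047 and PARP14 at chr3:122680618-122730840, both on the plus strand. The 4 genes span 203 kb. PARP9 and DTX3L are arranged head to head, their gene bodies share 340 bases, and 217 exonic bases are common to both, which is 2.4% of the exonic bases of PARP9 and 3.7% of those of DTX3L. No source used here says whether reads were counted by strand, and without strand the reads of that stretch cannot be assigned to one of the genes.

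RefSeq promoter windows (GRCh38.p14, 250 bases before to 50 bases after a gene start, 300 bases each) were matched by symbol for 9 of the 10 genes, 13 windows in all. They are shown for 3 genes that hold the interferon motif and for PARP15, which lies between DTX3L and PARP14. Both strands were searched for GAAANNGAAA, the core of the interferon-stimulated response element, and for TTCNNNGAA, the gamma-activated sequence, and in these windows no match of one overlapped a match of the other. Each line below reads 5′ to 3′ along the gene's own strand. Capitals mark GAAANNGAAA or its reverse complement in the first 3 lines and TTCNNNGAA in the PARP15 line.
DTX3L (chr3:122564088-122564387, plus strand): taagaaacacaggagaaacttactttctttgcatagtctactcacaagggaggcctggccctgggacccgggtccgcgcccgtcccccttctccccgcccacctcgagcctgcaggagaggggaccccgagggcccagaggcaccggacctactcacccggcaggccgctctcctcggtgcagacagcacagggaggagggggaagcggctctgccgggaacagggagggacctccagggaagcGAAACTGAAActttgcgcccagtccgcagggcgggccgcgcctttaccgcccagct
PARP14 (chr3:122680589-122680888, plus strand): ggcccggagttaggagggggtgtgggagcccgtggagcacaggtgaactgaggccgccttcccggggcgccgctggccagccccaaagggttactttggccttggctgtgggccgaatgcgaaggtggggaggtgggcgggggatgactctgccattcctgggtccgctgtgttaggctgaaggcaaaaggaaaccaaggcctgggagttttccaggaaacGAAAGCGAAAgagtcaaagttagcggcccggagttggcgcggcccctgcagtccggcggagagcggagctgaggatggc
PARP12 (chr7:140062902-140063201, minus strand): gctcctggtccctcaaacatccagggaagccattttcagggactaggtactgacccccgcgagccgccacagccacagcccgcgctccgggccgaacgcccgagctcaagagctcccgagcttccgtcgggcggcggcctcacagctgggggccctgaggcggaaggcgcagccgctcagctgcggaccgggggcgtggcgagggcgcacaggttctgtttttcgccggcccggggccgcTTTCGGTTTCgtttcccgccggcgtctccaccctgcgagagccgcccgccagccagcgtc
PARP15 (chr3:122577400-122577699, plus strand): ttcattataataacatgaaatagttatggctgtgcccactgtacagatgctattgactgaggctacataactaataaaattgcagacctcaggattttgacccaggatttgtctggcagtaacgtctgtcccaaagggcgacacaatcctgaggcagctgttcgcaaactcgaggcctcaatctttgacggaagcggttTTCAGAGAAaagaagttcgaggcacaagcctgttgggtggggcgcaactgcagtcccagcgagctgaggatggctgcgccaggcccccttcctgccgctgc

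GAAANNGAAA was present in 1248 of 34943 promoter windows of this length in RefSeq, or 3.57%, and TTCNNNGAA in 2675, or 7.66%. The DTX3L match, GAAACTGAAA, begins 6 bases before the gene start. The nearest PARP9 start lies only 38 bases away on the other strand, so the same GAAACTGAAA also falls in that PARP9 window, beginning 41 bases before the start. PARP14 holds GAAAGCGAAA 29 bases before its start and TTCCAGGAA 40 bases before it. PARP12 holds GAAACCGAAA on the opposite strand, 10 bases before its start. GAAANNGAAA was not found in the other PARP9 window, or in the windows of PARP11, PARP15 (2 windows), PARP8 (3 windows), PARP1 or PARP3. The first PARP15 window held the gamma-activated letters TTCAGAGAA 51 bases before its start. No PARP10 window was searched, because windows on chromosome 8 were left out. A match describes the letters in a window and does not show that a factor binds there.

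The values are log2 expression values as deposited, on which 1 unit is a doubling. The deposited scale looks like a regularized log, a transform that understates changes of genes with low values. No source used here says whether it was corrected for gene length, and levels are compared between libraries and not between genes. The limit for testing was a log2 value of 1 or more in 4 or more of the libraries, and every member was well above it in all 12, the lowest member value being 4.80 for PARP12 in SUDHL-4 under lenalidomide. A gene is called changed below at a limma Benjamini-Hochberg adjusted p under 0.05 over all 22528 tested genes, in a model with treatment and cell line. The B-cell markers MS4A1, CD79A, CD79B, PAX5 and CD22 were all present, with log2 values between 14.3 and 17.2.

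Under avadomide all 6 interferon-linked genes rose, while of the other 4 only PARP8 rose, PARP1 fell, and PARP15 and PARP3 did not pass the threshold. Over all tested genes 24.8% were called in this comparison, 13.6% as higher and 11.2% as lower. Of the 6 interferon-linked genes 5 were higher under avadomide in 4 of 4 lines, as were PARP15 and PARP8, against 19.7% of all tested genes, and PARP1 was lower in 4 of 4, against 16.8%. The median log2 fold change was 1.06 over the interferon-linked genes and 0.0747 over the others, against 0.0106 over all tested genes. At least 1 log2 unit of rise, together with a call, was reached by PARP14, PARP9, DTX3L and PARP12, and by 2.89% of all tested genes. RNA was measured in bulk, so a change in every cell cannot be told apart from a change in some of the cells.

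**Figure D1:**
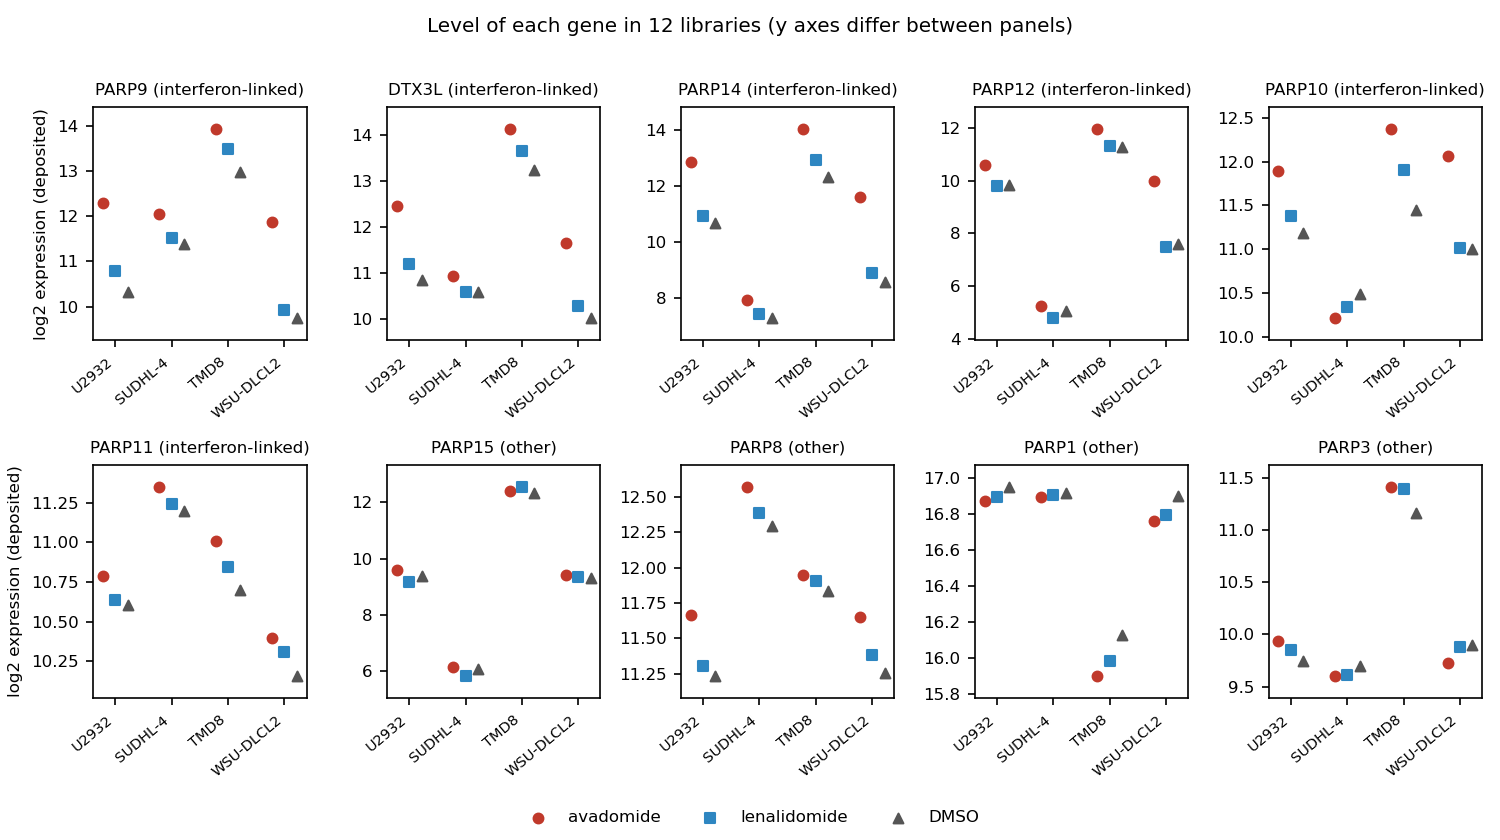
Deposited log2 expression (y axis, a separate scale in each panel) of the 10 genes in the avadomide, lenalidomide and DMSO libraries of each line (x axis), 1 point a library. The avadomide point lies above the DMSO point in all 4 lines for PARP9, DTX3L, PARP14, PARP12 and PARP11, and also for PARP15 and PARP8. The lines lie far apart for PARP12, PARP14 and PARP15.

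PARP9, a macrodomain protein that acts together with DTX3L, had log2 values of 13.92 in TMD8, 12.28 in U2932, 11.87 in WSU-DLCL2 and 12.05 in SUDHL-4 under avadomide. Under lenalidomide it had 13.48 in TMD8, 10.78 in U2932, 9.93 in WSU-DLCL2 and 11.52 in SUDHL-4, and under DMSO 12.97, 10.31, 9.75 and 11.39 in the same order. Within each line the avadomide library was highest and DMSO lowest, but across lines the groups overlapped, since TMD8 under DMSO lay above the avadomide libraries of the other 3 lines. The PARP9 rise under avadomide was 1.42 ± 0.24 (log2, SE, n = 4 lines), a 2.69-fold rise on the deposited scale (limma adjusted p = 0.00331). The differences within lines were 0.95 in TMD8, 1.97 in U2932, 2.12 in WSU-DLCL2 and 0.65 in SUDHL-4.

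DTX3L, the ubiquitin ligase that binds PARP9 and marks histones among other targets, had log2 values of 14.11 in TMD8, 12.46 in U2932, 11.66 in WSU-DLCL2 and 10.94 in SUDHL-4 under avadomide. Under lenalidomide the values were 13.65, 11.21, 10.30 and 10.59 in the same order of lines, and under DMSO 13.24, 10.86, 10.03 and 10.60. The avadomide library was again the highest of its line in all 4 lines, with a small step in SUDHL-4. DTX3L rose by 1.11 ± 0.19 (SE over n = 4 lines, in log2 units; limma adjusted p = 0.00355), with 0.88 in TMD8, 1.59 in U2932, 1.62 in WSU-DLCL2 and 0.34 in SUDHL-4. PARP9 and DTX3L thus kept the same order of lines by size of difference, WSU-DLCL2, U2932, TMD8 and then SUDHL-4.

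PARP14, a large mono-ADP-ribosyltransferase known as a coactivator of STAT6, showed the widest difference among the 10 genes. It had log2 values of 14.03 in TMD8, 12.85 in U2932, 11.61 in WSU-DLCL2 and 7.96 in SUDHL-4 under avadomide. In the lenalidomide libraries it stood at 12.93, 10.95, 8.90 and 7.45 in the same order of lines, and under DMSO at 12.34, 10.69, 8.59 and 7.31. In SUDHL-4 all 3 libraries lay below every library of the other lines. PARP14 rose by 1.88 ± 0.32 (SE over n = 4 lines, in log2 units; limma adjusted p = 0.00319), a 3.68-fold rise, and ranked 179 of 22528 genes by size of rise. Within lines the difference was 1.69 in TMD8, 2.16 in U2932, 3.01 in WSU-DLCL2 and 0.65 in SUDHL-4. That of WSU-DLCL2 was 8.08-fold.

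PARP12 (chr7:140023744-140063721, minus strand), a zinc-finger mono-ADP-ribosyltransferase with antiviral activity, had log2 values of 11.94 in TMD8, 10.61 in U2932, 10.00 in WSU-DLCL2 and 5.25 in SUDHL-4 under avadomide. The lenalidomide libraries gave 11.30, 9.81, 7.50 and 4.80 in the same order of lines, and the DMSO libraries 11.27, 9.83, 7.59 and 5.07. Most of the spread was between lines, and WSU-DLCL2 alone moved by more than 1 unit under avadomide. PARP12 rose by 1.01 ± 0.31 (SE over n = 4 lines, in log2 units; limma adjusted p = 0.0424), from differences of 0.67 in TMD8, 0.78 in U2932, 2.41 in WSU-DLCL2 and 0.17 in SUDHL-4. Without WSU-DLCL2 the change was 0.54 (adjusted p = 0.0278), and leaving out U2932 (adjusted p = 0.115) or TMD8 (adjusted p = 0.0802) ended the call.

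PARP10 (chr8:143977153-144012772, minus strand) is a mono-ADP-ribosyltransferase with ubiquitin-binding motifs. It shares 324 exonic bases with GRINA and 197 with SPATC1, both on the opposite strand, which is 5.4% and 3.3% of its exonic bases. PARP10 had log2 values of 12.37 in TMD8, 11.89 in U2932, 12.06 in WSU-DLCL2 and 10.22 in SUDHL-4 under avadomide. Under lenalidomide it had 11.90, 11.38, 11.01 and 10.35 in the same order of lines, and under DMSO 11.45, 11.19, 11.00 and 10.49. SUDHL-4 went the other way from the other 3 lines, with its lowest value under avadomide. PARP10 rose by 0.61 ± 0.19 (SE over n = 4 lines, in log2 units; limma adjusted p = 0.0413), higher in 3 of 4 lines, with 0.92 in TMD8, 0.71 in U2932, 1.06 in WSU-DLCL2 and -0.27 in SUDHL-4. Leaving out U2932 (adjusted p = 0.159), TMD8 (adjusted p = 0.156) or WSU-DLCL2 (adjusted p = 0.17) ended the call.

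PARP11 (chr12:3791047-3873448, minus strand), a mono-ADP-ribosyltransferase found at the nuclear envelope, had log2 values of 11.01 in TMD8, 10.79 in U2932, 10.40 in WSU-DLCL2 and 11.35 in SUDHL-4 under avadomide. In the lenalidomide libraries it stood at 10.85, 10.64, 10.31 and 11.24 in the same order of lines, and under DMSO at 10.70, 10.60, 10.16 and 11.20. Its steps were small and even, between 0.15 in SUDHL-4 and 0.31 in TMD8. PARP11 rose by 0.22 ± 0.04 (SE over n = 4 lines, in log2 units; limma adjusted p = 0.00454), a 1.17-fold rise, and it ranked 5503 of 22528 genes by size of rise. The call did not hold when each library was centred on its median (0.11, adjusted p = 0.089), a scaling that moved the median change of all tested genes to -0.0991.

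Among the other members, PARP15 carries macrodomains like its neighbour PARP14. PARP15 had log2 values of 12.40 in TMD8, 9.57 in U2932, 9.40 in WSU-DLCL2 and 6.13 in SUDHL-4 under avadomide, against 12.35, 9.36, 9.32 and 6.06 under DMSO in the same order. The lenalidomide values were 12.54, 9.17, 9.36 and 5.82. All 4 avadomide libraries lay slightly above their DMSO library, but by no more than 0.21, in U2932. WSU-DLCL2 fell out of that pattern after quantile normalization (-0.0014), and TMD8 (-0.125) and WSU-DLCL2 (-0.011) with libraries centred on their median. The avadomide difference was 0.10 with a 95% interval from -0.087 to 0.29 (limma adjusted p = 0.413), and with libraries centred on their median it was -0.0055. The upper end of that interval lies below the lower end of the PARP14 interval, 1.17, and of the PARP9 interval, 0.88.

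PARP8 (chr5:50665899-50846522, plus strand), a mono-ADP-ribosyltransferase of which little is known, had log2 values of 11.95 in TMD8, 11.67 in U2932, 11.65 in WSU-DLCL2 and 12.57 in SUDHL-4 under avadomide. The lenalidomide libraries gave 11.90, 11.30, 11.38 and 12.39 in the same order of lines, and the DMSO libraries 11.83, 11.24, 11.26 and 12.30. The avadomide library was the highest of its line in 4 of 4 lines, but with libraries centred on their median it lay below DMSO in TMD8 (-0.0602). PARP8 rose by 0.30 ± 0.05 (SE over n = 4 lines, in log2 units; limma adjusted p = 0.00407), and by 0.19 with libraries centred on their median (adjusted p = 0.0399). Its smallest step was in TMD8 (0.12) and not in SUDHL-4 (0.27); whether lines differed was not tested.

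PARP1 (chr1:226360691-226408079, minus strand), the abundant DNA break sensor that is the target of the PARP inhibitors used in cancer, had log2 values of 15.90 in TMD8, 16.87 in U2932, 16.76 in WSU-DLCL2 and 16.89 in SUDHL-4 under avadomide. Under lenalidomide it had 15.98, 16.89, 16.79 and 16.90 in the same order of lines, and under DMSO 16.13, 16.95, 16.90 and 16.92. The avadomide library was the lowest of its line in all 4, with steps between -0.026 in SUDHL-4 and -0.23 in TMD8. PARP1 fell by 0.12 ± 0.03 (SE over n = 4 lines, in log2 units; limma adjusted p = 0.0340), a small change that missed the threshold after quantile normalization (-0.078, adjusted p = 0.2), where U2932 was higher under avadomide (0.0479). With libraries centred on their median the fall was larger and called (-0.2264, adjusted p = 0.0163). It was also lost without U2932 (adjusted p = 0.0895), TMD8 (adjusted p = 0.186) or WSU-DLCL2 (adjusted p = 0.156).

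PARP3 (chr3:51942345-51948867, plus strand), which acts with PARP1 at DNA breaks, had log2 values of 11.42 in TMD8, 9.94 in U2932, 9.73 in WSU-DLCL2 and 9.60 in SUDHL-4 under avadomide, against 11.17, 9.75, 9.90 and 9.69 under DMSO in the same order. The lenalidomide values were 11.40, 9.85, 9.88 and 9.61. U2932 and TMD8 were higher under avadomide, and SUDHL-4 and WSU-DLCL2 were lower. The difference was 0.045 with a 95% interval from -0.11 to 0.20 (limma adjusted p = 0.688).

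**Figure D2:**
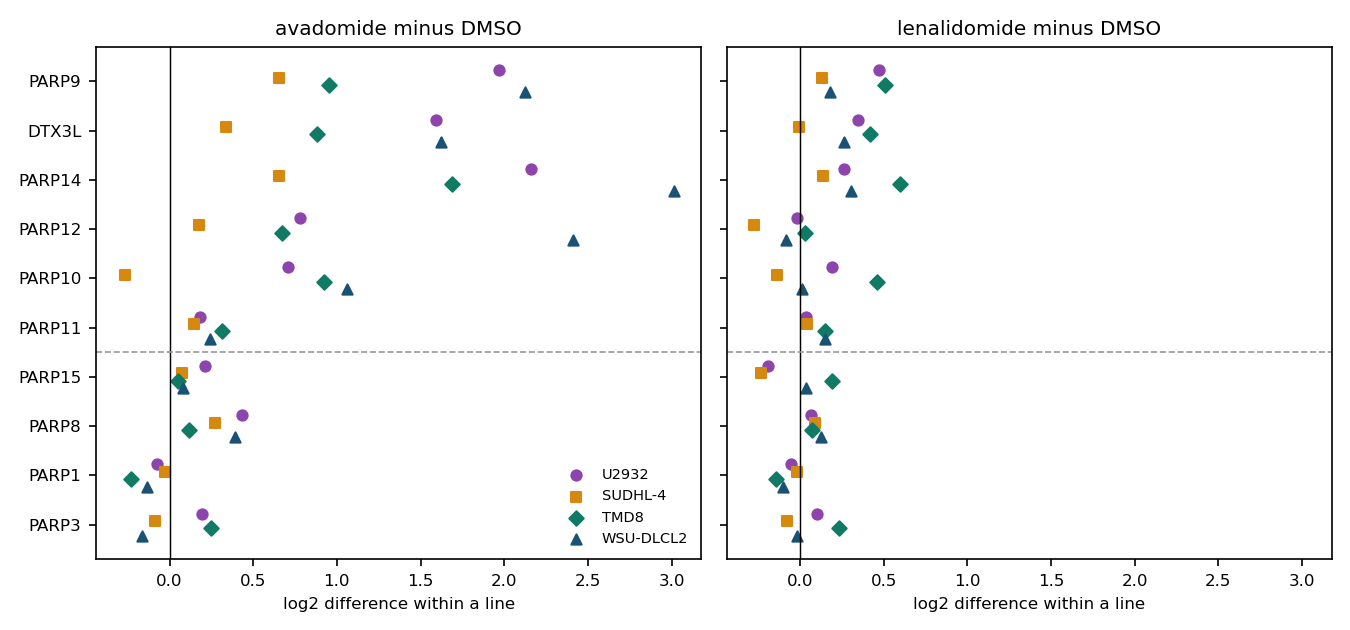
Log2 difference from DMSO within a line (x axis) for each gene (y axis) under avadomide (left) and lenalidomide (right), 1 point a line, with the interferon-linked genes above the dashed line. On the deposited scale SUDHL-4 has the smallest avadomide difference of the 4 lines for each of the 6 interferon-linked genes. WSU-DLCL2 reaches 3.01 for PARP14.

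The size of the avadomide difference varied by line. The median over the 6 interferon-linked genes was 0.90 in TMD8, 1.19 in U2932, 1.87 in WSU-DLCL2 and 0.255 in SUDHL-4. For the other 4 genes it was 0.0836, 0.201, -0.0297 and 0.0259 in the same order of lines. SUDHL-4 held the smallest avadomide difference for all 6 interferon-linked genes on the deposited scale. With libraries centred on their median that did not hold for PARP11, at 0.151 in SUDHL-4, 0.00615 in U2932 and 0.137 in TMD8. In SUDHL-4 PARP9 and PARP14 were still further above DMSO than 95.1% of tested genes were in that line, while PARP10, at -0.27, exceeded 15.3% of them. As each of these values compares 1 library with 1 other, the spread between lines was not tested.

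Lines also differed in level, and for each of the 10 genes cell line took the largest share of the sum of squares over the 12 libraries. That share was lowest for PARP9, at 72.1%, with 22.3% for treatment, and highest for PARP15, at 99.7%, with 0.0785% for treatment. PARP14 had 83.6% for line and 13.2% for treatment, DTX3L 84% and 12.7%, and PARP10 72.6% and 15.2%. TMD8 had the highest mean for PARP9, DTX3L, PARP10, PARP12, PARP14, PARP15 and PARP3, and the lowest for PARP1. SUDHL-4 had the lowest mean for PARP10, PARP12, PARP14, PARP15 and PARP3 and the highest for PARP11, PARP8 and PARP1. PARP15 means ran from 6.01 in SUDHL-4 over 9.36 in WSU-DLCL2 and 9.37 in U2932 to 12.4 in TMD8, and U2932 and WSU-DLCL2 overlapped. PARP12 means ran from 5.04 in SUDHL-4 over 8.36 in WSU-DLCL2 and 10.1 in U2932 to 11.5 in TMD8, where only WSU-DLCL2 and U2932 overlapped. PARP14 means ran from 7.57 in SUDHL-4 over 9.70 in WSU-DLCL2 and 11.5 in U2932 to 13.1 in TMD8, with overlap between WSU-DLCL2 and U2932 and between U2932 and TMD8. PARP9 and DTX3L were lowest in WSU-DLCL2, with means of 10.5 and 10.7, and highest in TMD8, with 13.5 and 13.7, and TMD8 overlapped no other line. The DTX3L libraries of WSU-DLCL2 and SUDHL-4 overlapped, as did those of SUDHL-4 and U2932. For PARP9 the libraries of U2932 overlapped those of WSU-DLCL2 and those of SUDHL-4.

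Under lenalidomide none of the 10 genes passed the threshold, and 0.235% of all tested genes did, 0.226% as higher. The number of tested genes with an unadjusted p under 0.05 was 2922, against 8425 under avadomide. PARP9 had a log2 difference from DMSO of 0.32 ± 0.24 (SE, n = 4 lines; limma adjusted p = 0.627), DTX3L of 0.26 ± 0.19 (adjusted p = 0.626) and PARP14 of 0.33 ± 0.32 (adjusted p = 0.721). PARP9, PARP14, PARP11 and PARP8 were above DMSO in 4 of 4 lines, as were 14.6% of all tested genes. PARP9 stood at 0.51 in TMD8, 0.47 in U2932, 0.18 in WSU-DLCL2 and 0.13 in SUDHL-4. PARP14 stood at 0.60 in TMD8, 0.26 in U2932, 0.31 in WSU-DLCL2 and 0.14 in SUDHL-4. These errors pool all 3 treatments, and a fit with only the 8 lenalidomide and DMSO libraries called PARP9 (0.32, adjusted p = 0.0443) and PARP14 (0.33, adjusted p = 0.0471), among 2.97% of all tested genes called in that fit. PARP12 showed -0.088 with a 95% interval from -0.79 to 0.62. The median was 0.194 over the interferon-linked genes, 0.00488 over the others and 5.3e-05 over all tested genes. Counted with their sign, the lenalidomide differences as deposited were highest in TMD8 for each of the 6 interferon-linked genes, though for PARP12 that was 0.027, with -0.274 in SUDHL-4. With libraries centred on their median PARP11 was highest in WSU-DLCL2 (0.117, against 0.0794 in TMD8). After quantile normalization PARP9 was highest in U2932 (0.502, against 0.5 in TMD8).

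**Figure D3:**
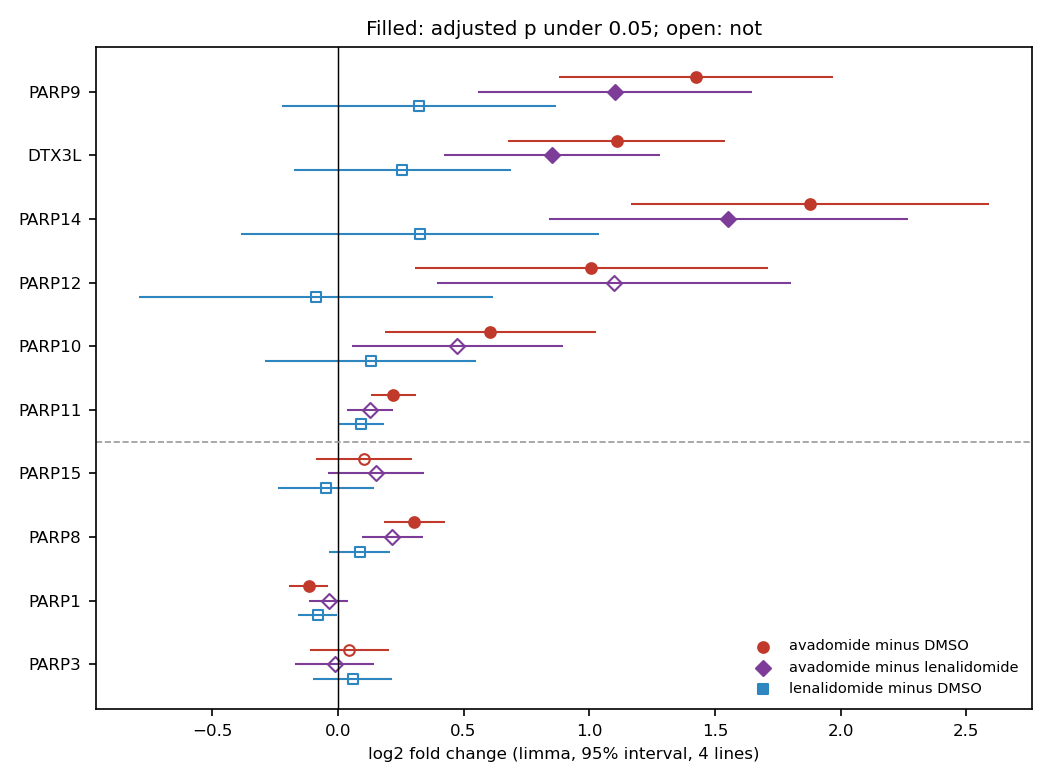
Log2 fold change with its 95% interval (x axis) from limma over 4 lines for each gene (y axis), for avadomide minus DMSO, avadomide minus lenalidomide and lenalidomide minus DMSO. Filled symbols have an adjusted p under 0.05; PARP14 has the largest avadomide minus DMSO value, 1.88, and the lenalidomide symbols are all open.

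Avadomide set directly against lenalidomide called PARP9, DTX3L and PARP14, all 3 higher under avadomide, among 4.73% of all tested genes called and 2.51% called higher. PARP14 was higher by 1.55 ± 0.32 (SE over n = 4 lines, in log2 units; limma adjusted p = 0.0319), PARP9 by 1.10 ± 0.24 (adjusted p = 0.0384) and DTX3L by 0.85 ± 0.19 (adjusted p = 0.0407), each in 4 of 4 lines, a pattern that 16.7% of all tested genes had. PARP12, at 1.10 with a 95% interval from 0.39 to 1.80 (adjusted p = 0.0775), and PARP8, at 0.22 with an interval from 0.094 to 0.34 (adjusted p = 0.0533), missed the threshold. PARP10 stood at 0.48 (adjusted p = 0.174) and PARP11 at 0.13 (adjusted p = 0.103). For PARP15, PARP1 and PARP3 the differences were 0.15, -0.037 and -0.013, with 95% intervals of -0.038 to 0.34 for PARP15, -0.11 to 0.040 for PARP1 and -0.17 to 0.14 for PARP3. The 3 calls were narrow. All 3 were lost without U2932 (adjusted p = 0.151 to 0.165), TMD8 (0.0725 to 0.0901) or WSU-DLCL2 (0.126 to 0.181), and that of PARP9 also without SUDHL-4 (0.0521). As doses are not given, a difference between the compounds cannot be told apart from a difference in dose. The avadomide and lenalidomide comparisons with DMSO share the DMSO libraries.

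On chromosome 3 the genes around the cluster were read as a check on neighbourhood, a window chosen after member values were known. Within 500 kb on either side of the DTX3L start, 12 genes were tested, 8 of them outside the family. Under avadomide 13.6% of all tested genes were called higher and 11.2% lower. Of the 8 genes outside the family, 2 rose and none fell. They were WDR5B, a WD-repeat gene (0.31 ± 0.06, limma adjusted p = 0.00679), and SEMA5B, a semaphorin (1.80 ± 0.50, adjusted p = 0.0258). SEMA5B had a mean log2 value of 1.13, near the limit for testing. Under DMSO it stood at 1.301 in TMD8 and at no more than 0.875 in any other line, so it passed that limit mainly through treated libraries. KPNA1, an importin next to PARP9, stood at 0.11 (adjusted p = 0.0549) and HSPBAP1, beyond PARP14, at -0.10 (adjusted p = 0.168). PARP15, whose GENCODE start lies 13.4 kb from that of DTX3L, was thus flanked on both sides by genes that rose by more than 1 unit. In the DMSO libraries TMD8 was the highest line for 4 of the 8 neighbours and for 31.0% of all tested genes.

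**Figure D4:**
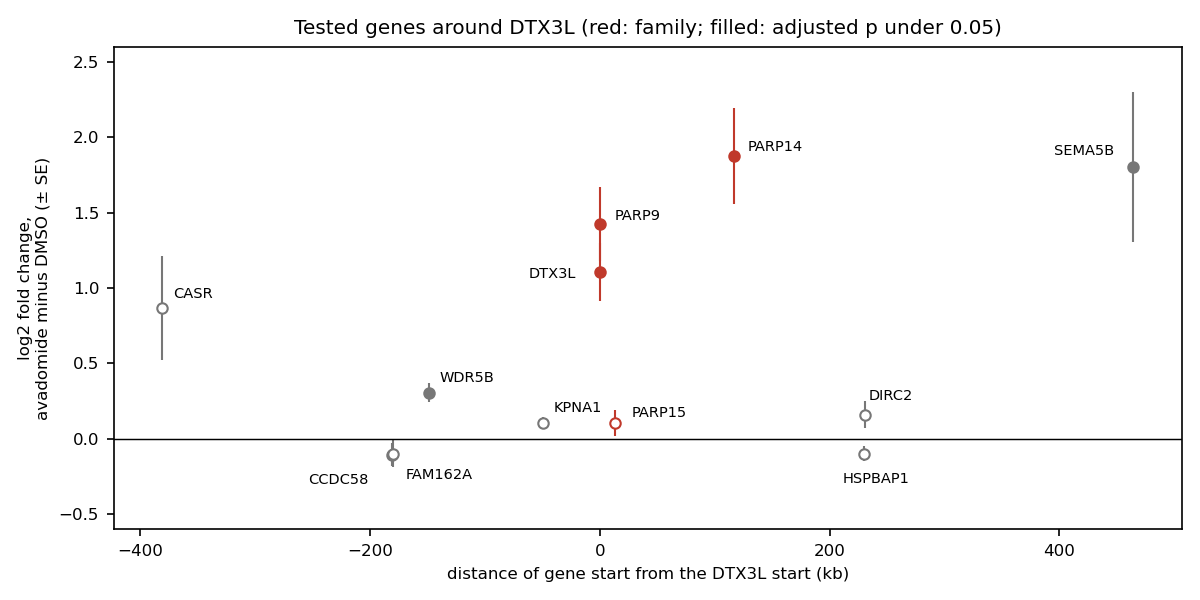
Log2 fold change, avadomide minus DMSO, ± SE over 4 lines (y axis) of the 12 tested genes around DTX3L, against the distance of their start from the DTX3L start in kb (x axis). PARP9, DTX3L and PARP14 lie above 1, PARP15 between them at 0.10, and SEMA5B at 1.80 is the only neighbour outside the family above 1. SEMA5B has a mean log2 value of 1.13, near the limit for testing.

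The signalling genes upstream of the motif were read in the same fit. Of 6 genes for parts of ISGF3, the type I interferon receptor and its kinases, 3 rose under avadomide and none fell, with a list median of 0.183. Over all tested genes 13.6% were called higher and 11.2% lower, with a median of 0.0106. IRF9 rose by 0.84 ± 0.18 (SE over n = 4 lines, in log2 units; limma adjusted p = 0.00989), STAT2 by 0.71 ± 0.13 (adjusted p = 0.00522) and the receptor chain IFNAR1 by 0.30 ± 0.03 (adjusted p = 0.000503). IFNAR2, JAK1 and TYK2 stood at 0.0037, -0.15 and 0.065 and did not pass, though JAK1 was called as lower with libraries centred on their median (-0.26, adjusted p = 0.0329). IRF9 differed from DMSO by 0.94 in TMD8, 1.20 in U2932, 1.26 in WSU-DLCL2 and -0.038 in SUDHL-4, and STAT2 by 1.18, 0.63, 0.93 and 0.10 in the same order of lines. SUDHL-4 thus held the smallest difference for STAT2 and IRF9, as it did for the interferon-linked members on the deposited scale. The IFNAR1 difference in SUDHL-4, 0.32, was instead the largest of the 4 lines. Under lenalidomide none of the 6 was called, and 0.235% of all tested genes were. Avadomide against lenalidomide called the same 3 genes as higher, where 2.51% of all tested genes were called higher. These calls were narrow, with limma adjusted p = 0.0405 for IRF9, 0.0486 for STAT2 and 0.0453 for IFNAR1. Without U2932 that comparison called 0 of all tested genes.

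The other ADP-ribosylation genes were read as 4 lists, beside shares of 13.6% of all tested genes called higher under avadomide and 11.2% called lower. Of 8 further PARP genes, all tested, 3 rose and 1 fell under avadomide, with a median of 0.0701. TNKS2, a tankyrase that makes ADP-ribose chains in telomere and Wnt regulation, rose by 0.33 ± 0.04 (SE over n = 4 lines, in log2 units; limma adjusted p = 0.000724). ZC3HAV1, the zinc-finger antiviral protein, rose by 0.18 ± 0.04 (adjusted p = 0.0081), and TIPARP, a target of the aryl hydrocarbon receptor, by 0.11 ± 0.03 (adjusted p = 0.0336). PARP2, the DNA repair partner of PARP1, fell by 0.15 ± 0.05 (adjusted p = 0.0435), lower in 3 of 4 lines. TNKS2 and ZC3HAV1 were also higher under avadomide than under lenalidomide, by 0.24 (adjusted p = 0.0177) and 0.18 (adjusted p = 0.0336). Of all tested genes 2.51% were called higher in that comparison. Of 4 Deltex ligases related to DTX3L none rose and DTX1, a Notch regulator, fell by 0.14 ± 0.03 (adjusted p = 0.0154), with a list median of -0.12.

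Genes that remove or read ADP-ribose numbered 10, of which none rose and 1 fell, with a median of 0.035. That 1 was CHD1L, a chromatin remodeller recruited by ADP-ribose chains, which fell by 0.25 ± 0.03 (limma adjusted p = 0.00105, n = 4 lines) and was lower in 4 of 4 lines. PARG, which degrades the chains, stood at -0.098 (adjusted p = 0.0671). Of 10 genes for NAD synthesis and use 8 were tested, and NMNAT2 and NMNAT3 were too low, NMNAT3 being listed at 0. QPRT, an enzyme of NAD synthesis from tryptophan, rose by 0.59 ± 0.19 (adjusted p = 0.0443), higher in 3 of 4 lines, and the NAD-dependent deacetylase SIRT1 rose by 0.16 ± 0.03 (adjusted p = 0.0068). NADK, the NAD kinase, fell by 0.21 ± 0.03 (adjusted p = 0.00277). NAMPT, the main salvage enzyme for NAD, stood at 0.0097 (adjusted p = 0.952), and the list median was -0.0289. Over these 4 lists 5 genes rose and 4 fell under avadomide, while 13.6% of all tested genes were called higher and 11.2% lower. With libraries centred on their median 2 genes of the lists rose and 9 fell. All 22528 tested genes shifted alike under that centring, to 1881 called higher and 4825 lower, from 3068 and 2514 as deposited. ZC3HAV1 (0.070), TIPARP (0.0049) and SIRT1 (0.051) then lost their call, and TIPARP lost it after quantile normalization too (adjusted p = 0.0688). Under lenalidomide none of the genes of these 4 lists was called, and only 0.235% of all tested genes were.

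**Figure D5:**
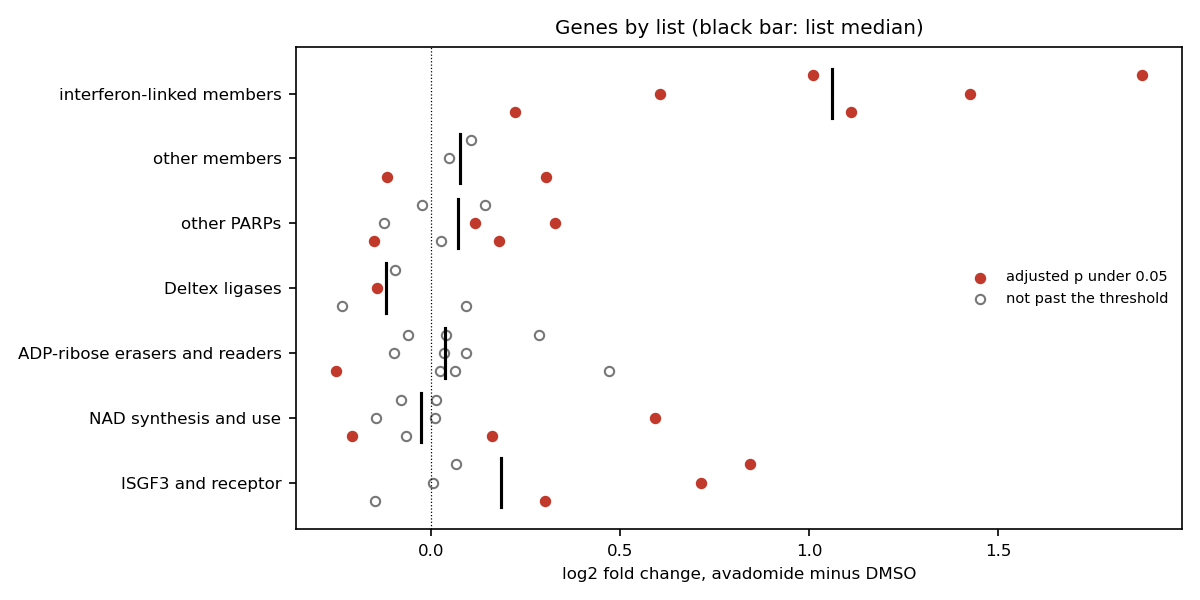
Log2 fold change, avadomide minus DMSO, over 4 lines (x axis) of each tested gene by list (y axis), with filled points at an adjusted p under 0.05 and a black bar at the list median. The interferon-linked members have a median of 1.06, and each list of further ADP-ribosylation genes has a median between -0.12 and 0.0701.

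Markers of other cell types were read beside these results. For each list the values were turned back from log2, summed within a library and put on the log2 scale again. For 7 T and NK cell markers this log2 of the sum ranged from 4.69 to 7.16 in avadomide libraries, from 4.58 to 6.16 in lenalidomide libraries and from 2.99 to 6.25 in DMSO libraries. In this list 3 of 7 passed the limit for testing, and the highest value in any library was 6.76 for NKG7, 6.17 for CD3E, 4.80 for CD2, 4.70 for NCAM1, 2.08 for CD3G, -0.056 for CD3D and -0.637 for CD7. CD2, which did not pass the limit for testing, was 6.16 higher under avadomide than under DMSO in TMD8, and NKG7 was 5.26 higher there. For 5 myeloid markers the ranges were 3.80 to 7.52 under avadomide, 3.90 to 6.59 under lenalidomide and 3.55 to 5.995 under DMSO, and the highest value in any library was 6.54 for CSF1R, 5.98 for CD14, 5.83 for ITGAM, 4.12 for LYZ and -2.39 for FCGR3A. For 7 stromal and epithelial markers the ranges were 10.4 to 11.8 under avadomide, 10.0 to 12 under lenalidomide and 9.48 to 11.9 under DMSO. Their highest value in any library was 11.83 for DCN, 10.99 for EPCAM, 9.991 for COL1A1, 9.313 for PECAM1, 8.995 for KRT8, 7.351 for PDGFRB and 3.83 for COL1A2. DCN was at 5.862 or more in every library. Single markers were called under avadomide: NKG7 (2.59), LYZ (1.64), COL1A1 (1.27) and PECAM1 (1.92) as higher, and DCN (-0.35) and CD22 (-0.28) as lower. Their part in the member results was not tested.

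Likeness of pattern was read as the Pearson correlation of log2 values after subtracting each line's mean, over 12 libraries and 17477 tested genes with a symbol, as a description in which all points share libraries and treatments. PARP9 and DTX3L had r = 0.994 with each other, and PARP14 had 0.984 with PARP9 and 0.985 with DTX3L. PARP12 and PARP10 had 0.894 and 0.885 with PARP9, PARP8 had 0.951 and PARP15 0.516. PARP1 ran opposite to PARP11, at -0.919. Outside the family the genes most like DTX3L were SYNPO, an actin-associated protein (0.994), the antiviral GTPase MX1 (0.988) and HECTD2, a ubiquitin ligase (0.988). Those most like PARP14 were HECTD2 (0.991), THEMIS2 (0.99) and FLVCR2 (0.99), with the antiviral gene IFIT5 at 0.987. PARP9 was most like TMEM119 (0.986) and PPP1R18 (0.985), PARP12 most like SOCS3, an inhibitor of cytokine signalling (0.978), and PARP10 most like TMEM140 (0.983), with the interferon-inducible EPSTI1 at 0.976. For PARP11 it was CORO1B (0.986), for PARP8 LRRK2 and MFSD1 (both 0.992), for PARP1 the pseudogene GCSHP5 (0.983) and for PARP3 the antisense gene RUNDC3A-AS1 (0.968). PARP15 had no gene above 0.872, which was MAN1C1. Among the 5 nearest of PARP1 was MSH6, a DNA mismatch repair gene, at 0.963.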

How the data were processed

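RNA of 4 DLBCL lines under avadomide, lenalidomide or DMSO gave 12 libraries, grouped by the labels. The authors deposited 1 table that gives each gene a log2 value in each library, between -2.41 and 20.1. The submitters' processing notes name STAR, Salmon, MACS (a peak caller) and build hg38 with no version. How the values were normalized and transformed is not given in the sources used here. No counts could be recovered, so depth is unknown. Of 58684 entries, 28 with symbols turned into dates were left out, and 17112 genes were listed at 0 in all libraries. A library had 13865 to 15294 genes at a log2 value of 5 or more. Residual SDs had a median of 0.297 at means of 1 to 5, 0.142 for 5 to 10 and 0.0683 for 10 to 15. No libraries were identical.

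Genes reaching a log2 value of 1 in 4 or more libraries (22528) were tested with limma 3.58.1 in R 4.3.3. The model held treatment and cell line, with an intensity trend, 6 residual and 9.62 total degrees of freedom. Tests were two-sided, with Benjamini-Hochberg adjustment over all tested genes and a threshold of 0.05. The SE of a gene pools all 12 libraries and is the same in every comparison. Line pairs the libraries: deviations from treatment means correlated at 0.918 to 0.977 within a line and at -0.574 to 0.199 between lines. Nothing says that libraries came from repeated cultures, so p-values measure the spread between these 4 lines, which may be partly technical, and an exact sign-flip test over 4 lines cannot go below 0.125.

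The members and lists were chosen with earlier results of these data known. Named genes are the members, up to 4 genes of each list (called genes by size, then genes the text needs), the cell type markers, and genes from the 5 most like each member. The neighbours on chromosome 3 were added after member values were seen. A few genes of these lists are not reported here. Symbols ADPRS and HPF1 were matched through RefSeq synonyms. Alternatives were no filter on low values, quantile normalization, centring on the median, no replicate block, no intensity trend, only the 8 libraries compared, and leaving out each line.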

Additional observations from a re-analysis of the deposited data

Results flagged for a closer look

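Among 50 groups of 4 values checked (the levels of each gene within a treatment and its differences from DMSO over the 4 lines), 6 had a single library or line far from the other 3 by Dixon's criterion. Chance alone gives about 1 such group in 20, but the level groups of a gene hold the same 4 lines under each treatment and are not independent. The same line can thus be flagged again under another treatment, and the 6 groups are not 6 separate results.

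PARP1 in TMD8 stood apart in all 3 treatments, with a log2 value of 15.9 under avadomide where the other lines had 16.76 to 16.89. It had 15.98 under lenalidomide, the others 16.79 to 16.9, and 16.13 under DMSO, the others 16.9 to 16.95. PARP3 in TMD8 was high under lenalidomide, at 11.4 with the other lines at 9.613 to 9.878, and under DMSO, at 11.17 with the others at 9.693 to 9.896. TMD8 was thus low for PARP1 and high for PARP3, as the means by line also show. The PARP15 difference between avadomide and DMSO was 0.2102 in U2932, while the other lines lay between 0.0512 and 0.0777. The causes were not tested.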

How the results depend on the processing

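Each count and member value was recomputed under 10 alternatives. The rises of PARP9, DTX3L and PARP14 under avadomide were called under all of these except the model without the replicate block. Leaving out that block, the cell line, which is the pairing, gave 0 called genes among all tested in each comparison, 0 interferon-linked and 0 other members, and 0 in the lists of ADP-ribosylation and interferon signalling genes; the adjusted p of PARP9, DTX3L and PARP14 was then 1.

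Called genes under avadomide against DMSO (5582) numbered 1376 with only the 8 libraries compared and 2666 to 4644 when a line was left out (3315 without U2932). They split 3068 higher and 2514 lower as deposited, 2544 and 3644 after quantile normalization and 1881 and 4825 with libraries centred on their median. These scalings moved the median change of all tested genes from 0.0106 to -0.0589 and -0.0991. Interferon-linked calls (6) numbered 3 with centring, 3 with the 8 libraries and 4 to 6 without a line. Calls among the other members (2) numbered 1 without the filter, after quantile normalization and without the trend, 0 with the 8 libraries and 1 to 2 without a line. PARP10 and PARP12 were also lost without the filter (adjusted p = 0.122 and 0.126), without the trend (0.0851 and 0.0855), with centring (0.0507 and 0.05) and with the 8 libraries (0.137 and 0.128). With the 8 libraries PARP11 (0.0682), PARP8 (0.0523) and PARP1 (0.163) were lost too, and PARP1 also without the filter (0.104) and without the trend (0.107).

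Lenalidomide against DMSO (53 called) gave 0 without the filter, 21 after quantile normalization, 0 with centring, 1 without the trend, 669 with the 8 libraries and 0 to 67 without a line; its interferon-linked calls were 2 with the 8 libraries. Avadomide against lenalidomide (1065) gave 220 without the filter, 1736 with centring (380 higher and 1356 lower, 487 and 696 after quantile normalization, 565 and 500 as deposited), 10 without the trend and 0 to 507 without a line (62 without TMD8 and 15 without WSU-DLCL2). Its 3 interferon-linked calls were 0 without the filter, without the trend and with the 8 libraries, and 0 to 3 without a line; PARP10 passed without SUDHL-4 (0.68, adjusted p = 0.0356). The 9 called ADP-ribosylation genes outside the members numbered 5 without the trend, 2 with the 8 libraries and 4 to 7 without a line. The 3 interferon signalling calls numbered 1 with the 8 libraries.

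Over the 4 lines, signs changed for differences that were not called. Against DMSO under avadomide PARP15 was -0.0055 with centring, and PARP3 was -0.064 with centring, -0.0033 without U2932 and -0.022 without TMD8. Under lenalidomide against DMSO PARP15 was 0.013 without SUDHL-4. For avadomide against lenalidomide PARP1 was 0.014 after quantile normalization and PARP3 was 0.032 without WSU-DLCL2. Within single lines, 3 of 80 member differences from DMSO changed sign after quantile normalization and 7 with centring, the largest being that of PARP8 in TMD8 under avadomide, 0.116 as deposited. The causes were not tested. A correction for GC content and length was not run, as 78.2% of tested genes had both values, under the 80% required. GC content ran from 35.6% (PARP8) to 66.9% (PARP10) among members.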
